A study of Mus with 4 samples.

Results

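The genes described here are 40 genes of lipid synthesis, storage and lipolysis in interscapular brown adipose tissue (iBAT), chosen by gene symbol and followed in a pair of m6A peak lists. Of these 40 genes, 37 carried a peak in at least 1 list, out of 10105 gene symbols that did. Together they held 80 of the 18400 peaks listed for *Wtap* flox/flox mice and 73 of the 18693 peaks listed for *Wtap*-BKO mice. The study asked how the loss of WTAP in brown fat changes m6A on mRNA.

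The control mice were *Wtap* flox/flox mice, in which exon 4 of *Wtap* lies between loxP sites. The other group was *Wtap*-BKO mice, which carry the same floxed alleles and *Ucp1-iCre*. In this Cre line, iCre is expressed from the *Ucp1* gene, so the deletion is limited to UCP1-expressing cells, and the other cells of the tissue keep *Wtap*. All mice were C57BL/6 mice aged 8 weeks, and iBAT of 8 mice was pooled for each sample. The 4 samples were 1 m6A immunoprecipitate (IP) and 1 input per genotype, and the peak list of each genotype rests on 1 such pair. There are therefore no replicates, no difference between genotypes was tested, and all intervals below are 95% Wilson intervals that cover counting error only and treat peaks or genes as independent. The read totals behind the lists are unknown. A gene without a listed peak had none that passed the authors' false discovery rate of 0.05, and peaks do not measure the amount of transcript. *Wtap* itself had peaks in both lists, which for this reason do not check the deletion. In whole tissue, fewer brown adipocytes, less RNA of a gene per cell and less m6A on that RNA cannot be told apart from these lists.

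Brown adipocytes store triacylglycerol in many small lipid droplets and burn its fatty acids in their mitochondria, where free fatty acids also activate UCP1. Triacylglycerol is built on glycerol-3-phosphate by stepwise acylation, with fatty acids made in the cell or taken up from lipoproteins, and it is broken down again by a chain of lipases at the surface of the droplet. WTAP is a regulatory subunit of the METTL3 and METTL14 complex that writes m6A on mRNA, most often near stop codons and in 3′-UTRs.

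Most of the lipid genes carried a peak in each list, in a share whose interval holds that of all genes. Peaks were listed for 34 of them in control mice and for 33 in *Wtap*-BKO mice. Of the 37 genes with a peak, 30 had peaks in both lists (81.1%, interval 65.8% to 90.5%), against 73.3% of all gene symbols. *Dgat2*, *Crls1*, *Gk* and *Scap* had peaks in the control list alone, as did 13.5% of all symbols. *Srebf1*, *Plin2* and *Bscl2* had peaks in the *Wtap*-BKO list alone, as did 13.2% of all symbols. No peak was listed for *Mogat2*, *Acly* or *Pnpla3*. The plot of peak counts shows that the peaks were unevenly spread, from 1 peak on *Dgat1* in each list to 6 on *Plin1* in *Wtap*-BKO mice. Genes with a peak had on average 2.35 peaks in the control list and 2.21 in the *Wtap*-BKO list, against 1.95 and 2.0 over all symbols.

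**Figure D1:**
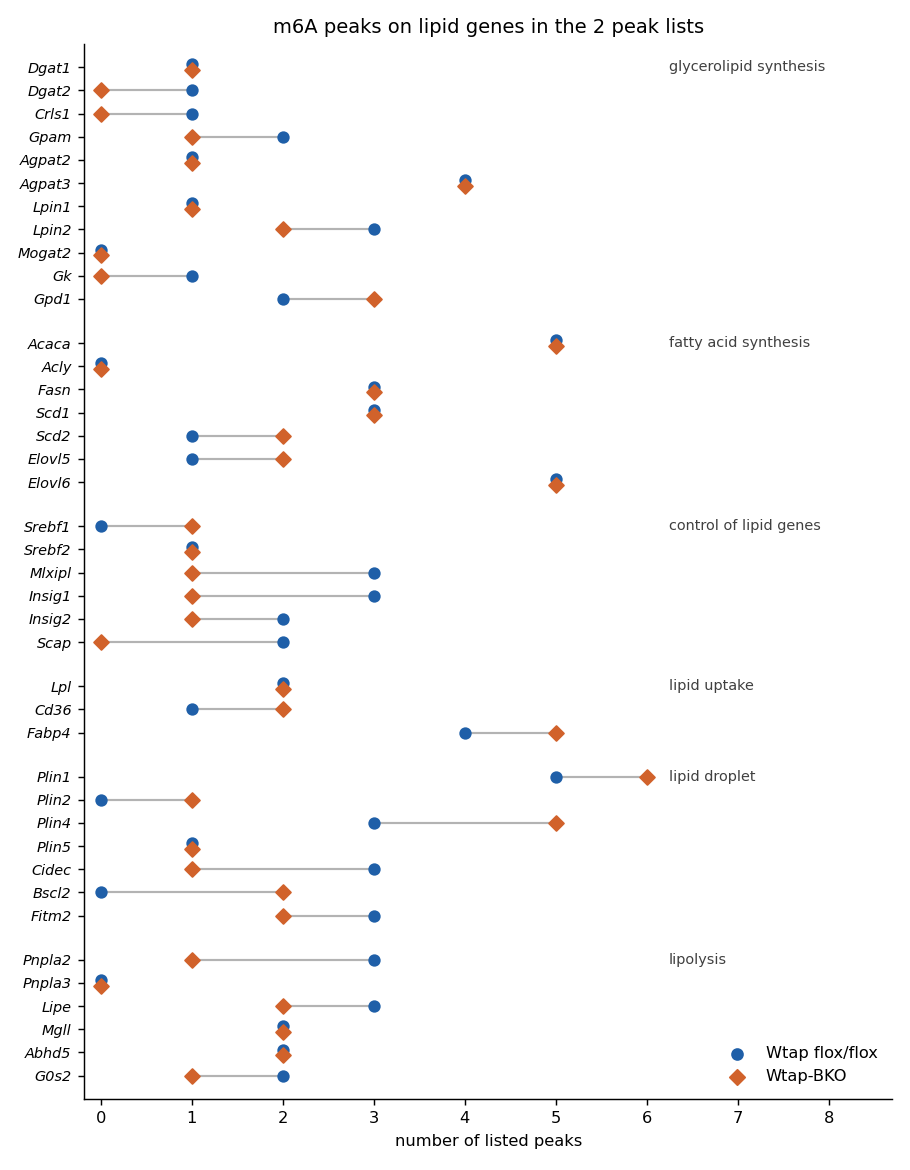
The number of listed m6A peaks (horizontal axis) is drawn for each of the 40 genes, grouped by role, with circles for control (*Wtap* flox/flox) and diamonds for *Wtap*-BKO mice. *Dgat2*, *Crls1*, *Gk* and *Scap* have a diamond at 0, *Srebf1*, *Plin2* and *Bscl2* have a circle at 0, and *Mogat2*, *Acly* and *Pnpla3* have both at 0.

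Below, a peak counts as found in the opposite list, or as matched, when a peak of the same strand there covers 1 or more of its exonic bases. The rank of a peak is the percentage of peaks in its own list with a weaker false discovery rate, so that 99 marks a peak near the top. Fold enrichment of IP over input had a median of 6.58 over all control peaks and 4.65 over all *Wtap*-BKO peaks. Its scaling is not given, and p-values depend on read depth, which is unknown. Values from both lists set side by side below therefore describe each list and do not measure a difference. All peaks were listed on exons of Ensembl genes. Positions are given on GRCm38, and distances run from the centre of a peak to the end of the gene in a RefSeq gene table, which does not separate coding sequence from UTRs.

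In glycerolipid synthesis, 10 of 11 genes had peaks in the control list and 7 in the *Wtap*-BKO list, with 17 and 13 peaks, and the 7 all had peaks in both lists. Of these genes, 3 had a peak in control mice alone. *Dgat2*, which adds the last fatty acid to diacylglycerol, carried a 240-base peak at chr7:99154436-99154675, 893 bp from its 3′ end, in control mice and none in *Wtap*-BKO mice. That peak ranked at 98.8 with a log10 false discovery rate of -255, although its fold enrichment of IP over input was only 2.03. *Dgat1*, the other enzyme of this step, had 1 peak in each list 158 and 173 bp from its 5′ end, and all 181 bases of the control peak lay in the 211-base *Wtap*-BKO peak. *Crls1*, which makes cardiolipin in mitochondria, had a peak of 268 bases in 2 exonic blocks within chr2:132864179-132866101, ranked at 98.6, in control mice alone. *Gk*, the glycerol kinase gene, had a weaker peak of 181 bases 269 bp from its 5′ end in that list, ranked at 48.0, and none in the other.

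The enzymes of the earlier steps had peaks in both lists, of unlike extent or place. *Agpat2*, which acylates lysophosphatidic acid, had 1 strong peak in each list near its 3′ end. It covered 571 bases at chr2:26593147-26593717 with a fold enrichment of 3.21 in control mice, and 181 bases at chr2:26593177-26593357 with a fold enrichment of 1.35 in *Wtap*-BKO mice. All of the shorter peak lay within the longer one. *Agpat3*, an acyltransferase of the same family, kept 4 peaks in each list at the same 4 places, but their sum was 1263 bases in control and 784 in *Wtap*-BKO mice, and most of that difference lay in the peak nearest to the 3′ end, of 540 and 91 bases. Its peak 28764 bp from the 3′ end in control mice ranked higher in *Wtap*-BKO mice, at 91.6 against 61.2. *Gpam*, which adds the first fatty acid, and *Lpin1*, a phosphatidic acid phosphatase, had peaks in both lists that shared no base. The *Lpin1* peak lay 2753 bp from the 3′ end and ranked at 92.3 in control mice, and lay 41513 bp from it with a rank of 47.7 in *Wtap*-BKO mice. The 2 *Gpam* peaks of control mice lay 2982 and 3386 bp from the 3′ end, and the single *Wtap*-BKO peak lay 8006 bp from it.

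The remaining glycerolipid genes had matching peaks. *Lpin2*, a second phosphatase of this family, had 3 peaks in the control list and 2 in the *Wtap*-BKO list, all 5 matched, and all ranked under 40. *Gpd1*, which makes glycerol-3-phosphate from a glycolytic intermediate, had 2 peaks in the control list, both found in the *Wtap*-BKO list. Its first peak in control mice had a log10 p-value of -4670 and a fold enrichment of 4.81, whereas the *Wtap*-BKO peak on it shared 91 bases, ranked at 88.6 and had a fold enrichment of 1.34. In *Wtap*-BKO mice *Gpd1* had 1 more peak, 33 bp from its 5′ end and ranked at 95.3, that had no counterpart. One *Gpd1* peak of control mice also overlapped a peak assigned to a different gene, so its assignment is uncertain.

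In fatty acid synthesis, the same 6 of 7 genes had peaks in both lists, with 18 and 20 peaks. *Acaca*, which encodes the carboxylase that makes malonyl-CoA, had 5 peaks in each list, and 4 of the 5 control peaks were found in *Wtap*-BKO mice. The 3 strongest, centred 1662, 674 and 164 bp from the 3′ end, had fold enrichments of 8.99, 5.29 and 4.04 in control mice, and the *Wtap*-BKO peaks at these places had 2.09, 1.60 and 1.47. They covered 570, 451 and 330 bases in the former and 450, 241 and 211 in the latter. Another *Wtap*-BKO peak, of 120 bases and 958 bp from the 3′ end, had a fold enrichment of 20.5 and a rank of 47.7. It shared only 1 base with the control peak of 451 bases. The matched *Acaca* peak in 2 blocks far from the 3′ end had fold enrichments of 1.82 in control and 2.78 in *Wtap*-BKO mice. *Fasn*, the fatty acid synthase gene, had 3 peaks in each list. The peaks toward the 5′ end matched, and those toward the 3′ end did not. In control mice a 210-base peak at chr11:120807046-120807255 ranked at 99.8 with a log10 p-value of -836, and in *Wtap*-BKO mice a 211-base peak lay at chr11:120806446-120806656 and ranked at 78.1.

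*Scd1*, the main stearoyl-CoA desaturase of adipose tissue, had more bases under peaks in *Wtap*-BKO mice, 899 against 689, as did *Fasn* (633 against 602) and *Elovl5* (420 against 270). Its peak at the 5′ end covered 329 bases in control and 449 in *Wtap*-BKO mice, and its rank was 96.7 and 99.93. The peak 2777 bp from the 3′ end covered 180 and 300 bases, with log10 p-values of -450 in control and -5620 in *Wtap*-BKO mice. It stood near the top of both lists, with ranks of 99.46 and 99.97, and its fold enrichments were 1.5 and 2.44. Each list also had 1 strong *Scd1* peak that the other lacked, 3553 bp from the 3′ end in control mice and 852 bp from it in *Wtap*-BKO mice, with low fold enrichments of 1.25 and 1.30. *Scd2*, a second desaturase, had 1 peak of 301 bases ranked at 82.9 in control mice, and 2 peaks of 90 and 121 bases on its ends, ranked at 21.8 and 27.4, in *Wtap*-BKO mice. *Elovl6*, which elongates palmitate, had 5 peaks in each list. Its peak 194 bp from the 5′ end was matched at all of its 330 bases, but 2 strong control peaks further 3′, ranked at 94.9 and 92.8, were not found in *Wtap*-BKO mice. *Elovl5*, an elongase of unsaturated fatty acids, had 1 matched peak of 270 and 240 bases, and a further 180-base peak ranked at 38.6 in *Wtap*-BKO mice.

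The regulators of lipid genes had 11 peaks in control and 5 in *Wtap*-BKO mice. A counterpart was found for 3 of the 11 and for 3 of the 5, against 68.8% of all peaks on named genes in each list. *Mlxipl*, which encodes the glucose-responsive factor ChREBP, had 3 peaks in the control list and 1 in the *Wtap*-BKO list. The matched peak covered 719 and 929 bases. The control peak nearest to the 3′ end, of 420 bases and ranked at 94.3, was not found in *Wtap*-BKO mice, nor was the one 75 bp from the 5′ end. *Insig1*, which holds the SCAP and SREBP complex in the endoplasmic reticulum, went from 3 peaks to 1, and that single peak ranked at 96.8 in *Wtap*-BKO mice although the control peak it matched ranked at 38.4. *Insig2*, its relative, had 2 peaks in control and 1 in *Wtap*-BKO mice, which shared 91 bases. *Scap*, the escort of SREBP, had 2 weak peaks in control mice alone, ranked at 18.7 and 15.3. *Srebf1*, a transcription factor of fatty acid synthesis, had 1 peak of 271 bases in 3 blocks in *Wtap*-BKO mice alone, ranked at 43.0. *Srebf2*, its relative in cholesterol synthesis, had a weak peak in each list, ranked at 25.9 and 17.1, at places 1347 and 35323 bp from the 3′ end.

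The genes of lipid uptake had more peaks and bases in *Wtap*-BKO mice, with 7 peaks over 1382 bases in control and 9 peaks over 2252 bases in *Wtap*-BKO mice. All 7 control peaks were found in *Wtap*-BKO mice, each with a higher rank by false discovery rate there, and 6 of the 7 were longer there. Over all named genes, 6548 of 11782 matched peaks ranked higher in *Wtap*-BKO mice and 4820 were longer. The 7 peaks lie on 3 genes, 4 of them on *Fabp4*, and are not independent. The fold enrichment was lower in *Wtap*-BKO mice for 2 of the 7, the shared *Cd36* peak (13.5 in control mice and 8.56) and the *Lpl* peak near the 5′ end (6.65 and 4.23). *Lpl*, the lipoprotein lipase gene, had a peak near each end. The one 1458 bp from the 3′ end covered 360 bases at chr8:68905294-68905653 with a log10 p-value of -117 in control mice, and 450 bases with a log10 p-value of -557 in *Wtap*-BKO mice. *Cd36*, a fatty acid translocase, shared a peak of 3 blocks that ranked at 73.4 in control and 90.4 in *Wtap*-BKO mice, and a second peak ranked at 76.6 was listed in *Wtap*-BKO mice alone. *Fabp4*, the fatty acid binding protein of adipocytes, had 4 peaks in control and 5 in *Wtap*-BKO mice, and their bases summed to 661 and 1171. All 4 matched, and the fifth, of 300 bases at chr3:10205913-10206212, ranked at 99.91 with a fold enrichment of 1.59.

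The lipid droplet genes had the most bases under peaks of the 6 roles in each list. Peaks covered 7464 bases in control and 4956 in *Wtap*-BKO mice, although their number was 15 and 18. All 5 droplet genes with peaks in both lists had fewer bases in *Wtap*-BKO mice, and of 12 control peaks found in *Wtap*-BKO mice, 10 were matched by a shorter peak. Over all named genes these shares were 54% of symbols with peaks in both lists and 48.2% of matched peaks. *Plin4*, a droplet coat protein with a long internal repeat, held the longest peak of the 40 genes. It covered 3024 bases in 2 blocks within chr17:56103766-56107362 and had a fold enrichment of 11.9 in control mice. In *Wtap*-BKO mice, 3 peaks of 929, 719 and 899 bases lay within it, with fold enrichments of 3.78, 2.25 and 4.26. Next to the 3′ end, *Plin4* had peaks of 301 and 450 bases in control mice, and of 91 and 181 bases in *Wtap*-BKO mice.

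*Plin5*, which links droplets to mitochondria, had 1 peak in each list. It covered 686 bases at chr17:56111601-56112286 with a rank of 99.3 and a fold enrichment of 7.87 in control mice, and 180 bases at chr17:56112018-56112197 with a rank of 72.8 and a fold enrichment of 1.73 in *Wtap*-BKO mice. *Cidec*, which promotes the fusion of droplets, had 3 peaks over 871 bases in control mice and 1 peak of 180 bases in *Wtap*-BKO mice. That peak lay within the 420-base control peak at chr6:113424634-113425053, and a 330-base peak next to it, ranked at 95.1, had no counterpart. *Fitm2*, which acts in the budding of droplets from the endoplasmic reticulum, had 3 peaks over 1048 bases in control mice and 2 peaks over 271 bases in *Wtap*-BKO mice. An unmatched control peak of 91 bases was centred beyond the 3′ end of *Fitm2*. The main *Fitm2* peak covered 598 bases with a rank of 98.6 in control mice and 180 bases with a rank of 64.4 in *Wtap*-BKO mice. On *Plin5*, *Cidec* and *Fitm2* the *Wtap*-BKO peaks were short segments inside the control peaks, as the map of peaks toward the 3′ end of the genes shows.

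*Plin1*, the main droplet coat of adipocytes, had 5 peaks in control mice, all found in *Wtap*-BKO mice, where a sixth was listed. The sixth, of 151 bases, and a matched peak in each list were centred beyond the 3′ end of the gene. With these included, the sums were close, 1084 and 1055 bases, but the *Plin1* peaks differed one from another. The *Plin1* peak that was strongest in control mice, at chr7:79729448-79729808, covered 361 bases with a rank of 81.7 and a fold enrichment of 2.81, and its match in *Wtap*-BKO mice covered 121 bases with a rank of 55.2 and a fold enrichment of 1.30. The *Plin1* peak that was strongest in *Wtap*-BKO mice, at chr7:79729089-79729208, covered 120 bases and ranked at 95.5, and its match in control mice covered 180 bases and ranked at 77.5. Of the 5 matches, 3 were shorter and 2 longer in *Wtap*-BKO mice. *Plin2*, a droplet coat of many cell types, had 1 weak peak in *Wtap*-BKO mice alone, ranked at 28.0. *Bscl2*, which encodes seipin, an organiser of droplet formation, had 2 peaks in *Wtap*-BKO mice alone, of 181 and 91 bases, ranked at 50.6 and 2.24.

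**Figure D2:**
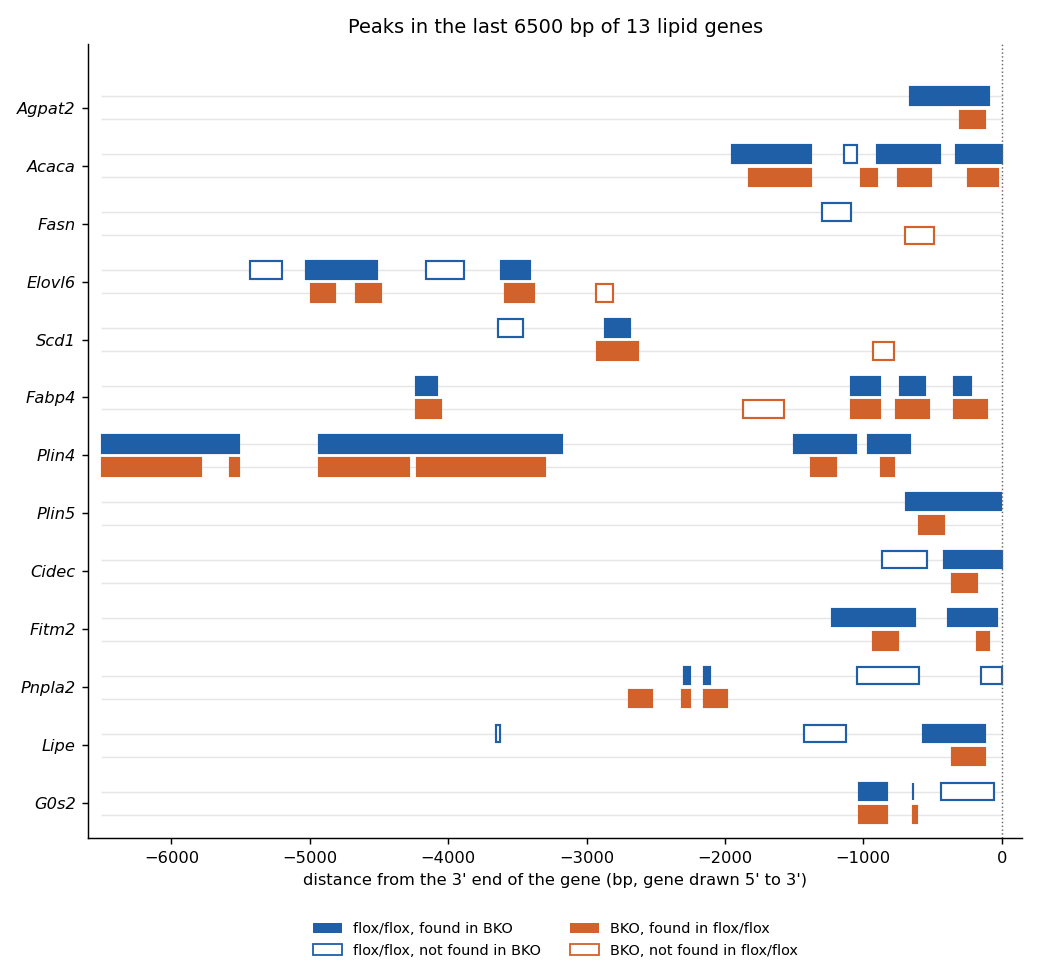
Blocks of peaks are drawn by their distance in bp from the 3′ end of the gene (horizontal axis, only the last 6500 bp) for 13 of the genes, with control (*Wtap* flox/flox) above and *Wtap*-BKO below each line, filled for matched peaks and open for unmatched ones. On *Agpat2*, *Plin5*, *Cidec* and *Fitm2* the *Wtap*-BKO blocks are shorter and lie inside control blocks, on *Pnpla2*, *Lipe* and *G0s2* open control blocks have nothing below them, and on *Fabp4* the *Wtap*-BKO blocks are as long or longer.

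In lipolysis, 5 of 6 genes had peaks in both lists, with 12 peaks over 4326 bases in control and 8 peaks over 2841 bases in *Wtap*-BKO mice. *Pnpla2*, which encodes adipose triglyceride lipase, the enzyme of the first step, had 3 peaks in control mice. The largest, of 449 bases at chr7:141459697-141460145, lay 822 bp from the 3′ end with a log10 p-value of -551 and a fold enrichment of 1.85, and no *Wtap*-BKO peak overlapped it. The single *Wtap*-BKO peak of *Pnpla2* covered 390 bases around the small control peak 2151 bp from the 3′ end and ranked at 95.9, against 65.8 for that small peak. *Lipe*, the hormone-sensitive lipase gene, kept its first and last peaks. The *Lipe* peak 344 bp from the 3′ end covered 450 and 240 bases in control and *Wtap*-BKO mice, and the long peak in 5 blocks near the middle of the gene covered 1405 and 1226 bases. Another *Lipe* peak between them, of 329 bases with a log10 false discovery rate of -275, was listed in control mice alone. The long peak overlapped a peak assigned to a different gene in both lists, so its reads may belong to either.

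*G0s2*, an inhibitor of adipose triglyceride lipase, had 2 peaks in control mice and 1 in *Wtap*-BKO mice. The 378-base peak at chr1:193272219-193272596, 248 bp from the 3′ end, ranked at 99.5 and was not found in *Wtap*-BKO mice. The peak near the 5′ end of *G0s2* was matched over all of its 204 bases, with fold enrichments of 26.6 and 8.52. *Abhd5*, the activator of the same lipase, had 2 peaks in each list, of which 1 matched. Control mice had an unmatched *Abhd5* peak 1840 bp from the 3′ end and *Wtap*-BKO mice had one 247 bp from the 5′ end. *Mgll*, the lipase that cleaves the last fatty acid, had 2 matched peaks in each list. Those near the 3′ end covered 240 and 151 bases, and those further 5′ covered 90 and 240 bases.

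Over the 30 genes with peaks in both lists, the bases under peaks were fewer in *Wtap*-BKO mice for 20 and more for 10, against 54% and 42.1% of all symbols with peaks in both lists. The median ratio of *Wtap*-BKO to control bases was 0.733 for the 30 genes and 0.933 for all symbols. By role it was 0.262 for lipid droplet, 0.609 for the regulators, 0.667 for lipolysis, 0.80 for glycerolipid synthesis, 0.903 for fatty acid synthesis and 1.77 for uptake, each a median of 3 to 7 genes. The number of peaks per gene was lower in *Wtap*-BKO mice for 10 genes, higher for 7 and equal for 13, where 23.8% of all symbols were lower and 27.3% higher. The plot of bases per gene shows that the longer lines point left for *Plin4*, *Fitm2*, *Lipe*, *Cidec*, *Plin5* and *Elovl6*, and right for *Fabp4*.

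**Figure D3:**
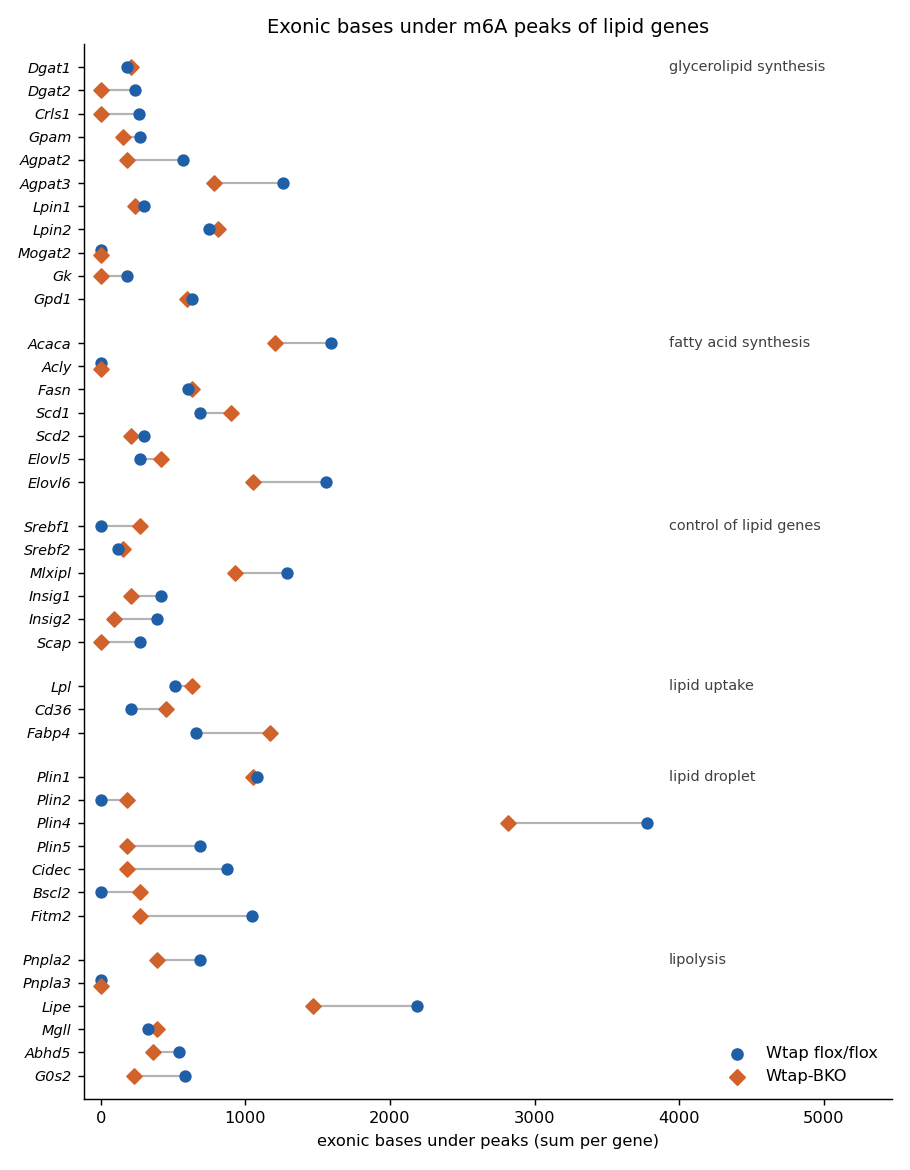
The sum of exonic bases under listed peaks (horizontal axis) is drawn for each of the 40 genes by role, with circles for control (*Wtap* flox/flox) and diamonds for *Wtap*-BKO mice joined by a line. All 5 lipid droplet genes with peaks in both lists have the diamond to the left, from 3775 to 2819 bases on *Plin4* and from 1048 to 271 on *Fitm2*, whereas *Lpl*, *Cd36* and *Fabp4* have it to the right.

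The strongest peak of a gene ranked lower in the *Wtap*-BKO list than in the control list for 23 of the 30 genes, against 49.1% of all symbols. The peaks compared need not lie at the same place. It ranked lower for all 5 lipolysis genes, for 6 of 7 glycerolipid genes, for 5 of 6 fatty acid synthesis genes and for 4 of 5 droplet genes. It ranked higher for *Lpl*, *Cd36*, *Fabp4*, *Insig1*, *Plin1*, *Scd1* and *Gpam*. The widest gaps were on *Scd2* (82.9 and 27.4), *Lpin1* (92.3 and 47.7), *Fitm2* (98.6 and 64.4) and, in the other direction, *Insig1* (63.5 and 96.8). Many genes lay near 99 in both lists, where the gap between ranks is small by construction. Ranked by fold enrichment in place of the false discovery rate, 16 of the 30 genes ranked lower in *Wtap*-BKO mice, close to the 51.4% of all symbols.

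**Figure D4:**
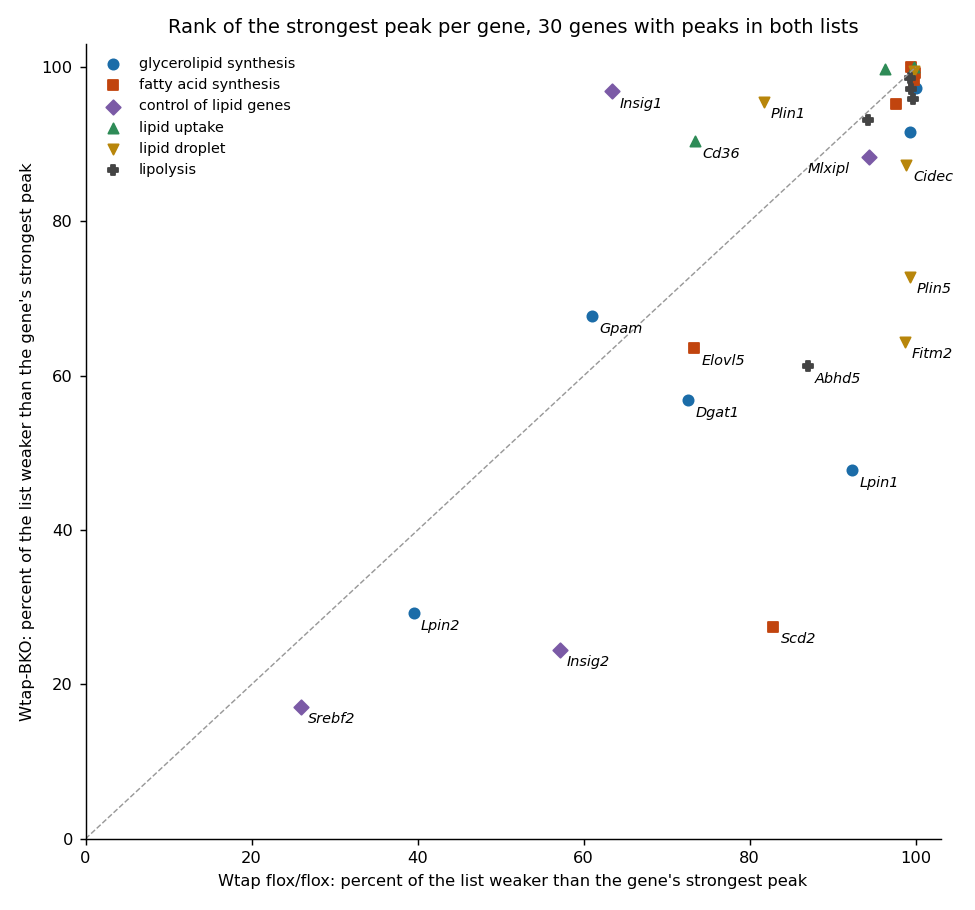
Each point is 1 of the 30 lipid genes with peaks in both lists, placed by the rank of its strongest peak in the control (*Wtap* flox/flox) list (horizontal axis, percent of that list that is weaker) and in the *Wtap*-BKO list (vertical axis), with a dashed line of equal rank. Below the line lie 23 genes, among them *Fitm2*, *Plin5*, *Lpin1* and *Scd2*, and above it 7, among them *Insig1*, *Plin1* and *Cd36*.

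Peak by peak, 53 of the 80 control peaks on lipid genes were found in the *Wtap*-BKO list (66.3%, interval 55.4% to 75.7%), against 68.8% of all peaks on named genes. In the other direction 57 of 73 *Wtap*-BKO peaks were found (78.1%, interval 67.3% to 86.0%), also against 68.8%. At least 1 unmatched control peak was listed on 20 of 34 genes (58.8%, interval 42.2% to 73.6%), where all symbols had 45.7%. An unmatched *Wtap*-BKO peak was listed on 15 of 33 genes (45.5%), where all symbols had 47.5%. These shares per gene, and those below, depend on the number of peaks per gene and were not adjusted for it. That number was 2.35 on lipid genes and 1.95 on all symbols in the control list, and 2.21 and 2.0 in the *Wtap*-BKO list. For strong peaks, below a false discovery rate of 1e-05, searched for in the whole opposite list, 47 of 66 control peaks were found, against 79.9% of all, and 48 of 60 *Wtap*-BKO peaks, against 85.3%. An unmatched strong control peak was then listed on 17 of 32 lipid genes, against 28.5% of all symbols, and an unmatched strong *Wtap*-BKO peak on 12 of 28, against 21.7%. With both lists restricted to strong peaks, 22 of 32 genes had an unmatched control peak, against 44.1%. When 50% of the bases of a peak had to be shared, 40 of 80 control peaks were found, against 60.3% of all, and 51 of 73 *Wtap*-BKO peaks, against 63.4%. Under that rule 28 of 34 genes had an unmatched control peak, against 54.7%, and 20 of 33 an unmatched *Wtap*-BKO peak, against 53.5%. By role and with 1 shared base, counterparts were found for all 7 control peaks of the uptake genes and 12 of 15 of the droplet genes. They were found for 13 of 18 in fatty acid synthesis, 11 of 17 in glycerolipid synthesis and 7 of 12 in lipolysis, against 68.8% of all. For the regulators it was 3 of 11.

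Matched peaks did not differ in 1 direction over the whole set. Of the 53 control peaks with a counterpart, the *Wtap*-BKO peak ranked lower for 26 and higher for 27, where 44.4% of all matched peaks ranked lower. It was shorter for 27, longer for 23 and equal for 3, where 48.2% of all were shorter. The median length went from 271 to 211 bases, and from 300 to 270 over all matched peaks. Matched droplet peaks had a median of 360 bases in control and 180 in *Wtap*-BKO mice, and 8 of 12 ranked lower. Matched glycerolipid peaks ranked lower for 9 of 11, and matched uptake peaks ranked lower for none of 7. On 4 peaks, 1 each on *Acaca*, *Elovl6*, *Scd2* and *Plin4*, the control peak overlapped more than 1 *Wtap*-BKO peak, as for 8.63% of all. On *Acaca*, 1 of these overlaps was of 1 base.

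Peaks on lipid genes stood high in their lists by false discovery rate and low by fold enrichment. The median rank by false discovery rate was 83.4 in control and 87.3 in *Wtap*-BKO mice, and the median rank by fold enrichment was 14.3 and 10.7. Their median fold enrichment was 2.81 and 2.10, against 6.58 and 4.65 over all peaks of the lists. A fold enrichment under 2 was listed for 22.5% and 42.5% of them, against 4.70% and 8.85% of all peaks. A false discovery rate of 0 was listed for 16 peaks in control and 8 in *Wtap*-BKO mice, or 20% and 11%, against 0.799% and 0.444% of all. In control mice these were on *Agpat2*, *Agpat3*, *Gpd1*, *Acaca*, *Fasn*, *Scd1*, *Fabp4*, *Plin4*, *Plin5*, *Pnpla2*, *Lipe* and *G0s2*, and in *Wtap*-BKO mice on *Scd1*, *Lpl* and *Fabp4*. Median lengths, 240 and 209 bases, were close to those of all peaks, 240 and 210.

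In the top 20% of each list by false discovery rate, a larger share of control peaks lacked a counterpart on lipid genes than on all named genes. Of 42 such control peaks, 12 were not found in *Wtap*-BKO mice (28.6%, interval 17.2% to 43.6%), against 9.33% of all and 22.2% (8 of 36) for 72 other genes of the same pathways. With 50% of bases shared as the rule it was 23 of 42, and with the top 20% taken by fold enrichment it was 1 of 4, so the count depends on both choices. The 12 peaks lay on *Dgat2*, *Crls1* and *Lpin1*, on *Fasn*, *Scd1* and *Elovl6*, on *Mlxipl*, on *Cidec*, and on *Pnpla2*, *Lipe* and *G0s2*, with 2 of them on *Elovl6*. Of 41 such *Wtap*-BKO peaks, 3 were not found in control mice (7.32%, interval 2.52% to 19.4%), against 2.07% of all, and they lay on *Fabp4*, *Gpd1* and *Scd1*. The shares were close to the background among peaks of low fold enrichment. Of peaks in both the top 20% by false discovery rate and the lowest 20% by fold enrichment, 9 of 22 control peaks of lipid genes were not found (40.9%, interval 23.3% to 61.3%), against 37.6% of all such peaks. For *Wtap*-BKO peaks it was 2 of 24 (8.33%), against 10.9%.

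**Figure D5:**
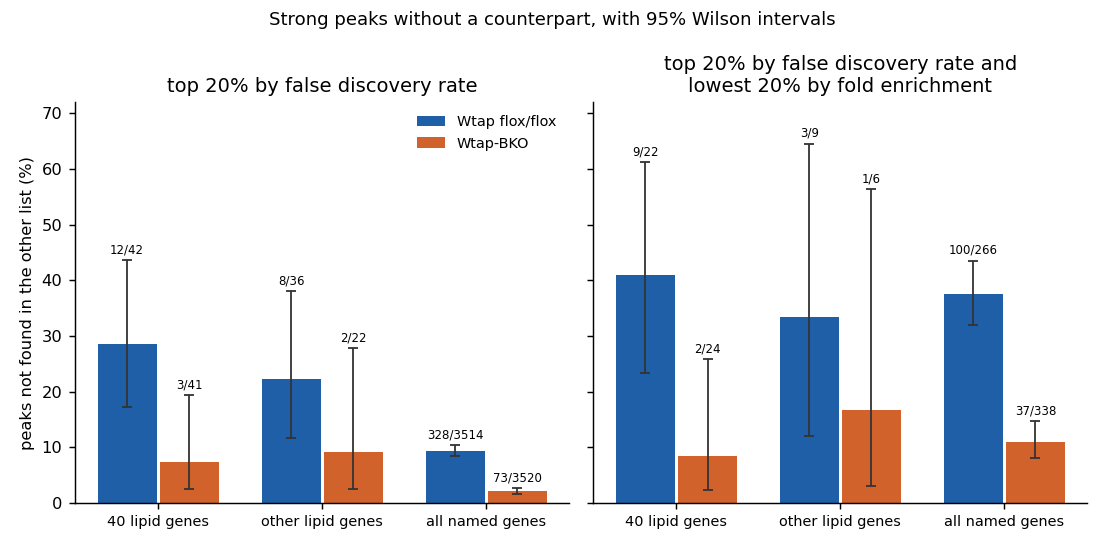
Bars give the percentage of peaks not found in the other list, from 0, for the 40 lipid genes, 72 other lipid genes and all named genes, with 95% Wilson intervals and the counts above them. In the top 20% by false discovery rate (left) the control bar is 28.6% for the 40 genes and 9.33% for all, whereas for peaks also in the lowest 20% by fold enrichment (right) the bars are 40.9% and 37.6%.

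The share of peaks near the 3′ end of the gene was above the background in both lists, with the background inside both intervals. Among peaks centred inside genes of at least 3000 bp, 23 of 76 control peaks (30.3%, interval 21.1% to 41.3%) lay within 1000 bp of the 3′ end, against 21.7% of all placed peaks. In *Wtap*-BKO mice it was 19 of 70 (27.1%, interval 18.1% to 38.5%), against 19.3%. Within 1000 bp of the 5′ end lay 9 of 76 (11.8%) and 9 of 70 (12.9%), against 11.4% and 13.1%. The peaks near the 5′ end were on *Dgat1*, *Agpat3*, *Gk*, *Elovl6*, *Scd1*, *Mlxipl*, *Lpl*, *Fabp4* and *Plin1* in control mice, and 7 of these 9 were found in *Wtap*-BKO mice, all but *Gk* and *Mlxipl*. Of the 25 placed control peaks without a counterpart, 8 lay near the 3′ end and 2 near the 5′ end. Of the 15 placed *Wtap*-BKO peaks without a counterpart, these counts were 3 and 2.

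For comparison, 72 further genes of the same pathways were counted. Of these, 59 had a peak in either list and 45 in both (76.3%). *Cds1*, *Cds2*, *Taz*, *Lclat1*, *Elovl3*, *Fads1*, *Nr1h2*, *Ces1f*, *Lipa* and *Rab18* had peaks in control mice alone, and *Agpat4*, *Cept1*, *Fads2* and *Hsd17b12* in *Wtap*-BKO mice alone. *Taz* encodes tafazzin, which remodels the cardiolipin made by CRLS1, and its 360-base peak ranked at 92.6. Of their 94 control peaks, 64 were found (68.1%), and of their 91 *Wtap*-BKO peaks, 67 (73.6%). Bases under peaks were fewer in *Wtap*-BKO mice for 27 of the 45 genes in both lists and more for 16, and the median ratio was 0.834.

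All 10 brown adipocyte markers, *Ucp1* and *Cidea* among them, carried peaks, with 26 in control and 21 in *Wtap*-BKO mice, and *Elovl3* had none in *Wtap*-BKO mice. Peaks on 8 macrophage markers numbered 7 and 15, with *Mrc1* and *Msr1* listed in *Wtap*-BKO mice alone, and *Adgre1* had none. Those on 8 T/B lymphocyte markers numbered 0 and 3, on 7 skeletal muscle markers 3 and 9, on 6 fibroblast markers 7 and 8, and on 5 endothelial markers 14 and 17. Each of these 5 lists of markers of other cells had more peaks in *Wtap*-BKO mice. Macrophages and endothelial cells also express lipid genes such as *Lpl*, *Cd36*, *Fabp4* and *Plin2*, and the part of other cells in the peaks of these genes was not tested.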

How the data were processed

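m6A peaks were taken from 2 deposited lists, 1 per genotype, each called by the authors on 1 pooled IP against 1 pooled input. The labels name fastp 0.19.11, BWA 0.7.12 and HOMER 4.9.1 in the submitters' processing notes, the methods name MACS2 for peak calling, and the lists have the layout of exomePeak, so the caller is uncertain. In the deposited tables, the column named score is the authors' p-value. Scores on a log10 scale for p-value and false discovery rate are also deposited, and the deposited fold enrichment is a ratio of IP over input, with its scaling not given in the sources used here. Another deposited column, used as it stands, counts the blocks of a peak. No listed false discovery rate exceeds 0.05, the authors' threshold. The library kit does not mark strand, so the strand of a peak is that of its gene.

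Starting from the lists, peaks were matched by shared exonic bases in Python 3.11.15 with pandas 2.3.3, numpy 2.4.6 and scipy 1.17.1, with figures from matplotlib 3.10.9. Peaks with a false discovery rate of 0 were ordered by p-value. The matching was checked on simulated data. With 1 pooled sample per genotype no test was made. Read depth is unknown. Distances used a RefSeq gene table of GRCm38.p6, in which 98.3% of 16620 control and 98.2% of 16950 *Wtap*-BKO peaks with a matching symbol and chromosome were centred inside their gene, and so was every peak of the 40 genes except 2 in each list, on *Plin1* and *Fitm2*. The genes, roles, markers and comparison lists were chosen with earlier results of these data known. Genes were described in full where they had peaks in 1 list alone, 2 or more peaks in a list, or an unmatched peak under 1e-05. The classes of strongest peaks were added after the data were seen. Motifs and sequences were not analysed here.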

Additional observations from a re-analysis of the deposited data

How the results depend on the processing

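Alternatives were run for 11 of the counts, 39 in all, and 32 stayed within 1.5 times of the count reported. None were run for bases under peaks, counts by role, lengths and ranks of matched peaks, or markers. Genes with peaks in both lists stayed within it under a false discovery rate of 1e-05 and without peaks that share bases with another gene's peak. The overlap rule does not enter that count. Matched peaks and genes with an unmatched peak stayed within it under these settings, under an overlap of 50% of bases and by genomic span. Their totals change with the setting, so a stable count does not mean a stable gap to all symbols. Genes with an unmatched control peak were 58.8% against 45.7% of all symbols. For strong peaks searched for in the whole opposite list they were 53.1% against 28.5%. For an unmatched *Wtap*-BKO peak these shares were 45.5% against 47.5%, and 42.9% against 21.7%. The window around the 3′ end mattered, with 11 control peaks in 500 bp and 36 in 2000 bp, and 9 *Wtap*-BKO peaks in 500 bp. Genes whose strongest peak ranked lower in *Wtap*-BKO mice numbered 23 of 30, and 16 of 30 by fold enrichment. That is within 1.5 times, but all symbols had 49.1% and 51.4%, so the gap to all symbols depends on the column ranked. Among the top 20% of peaks, an overlap of 50% left 23 control and 7 *Wtap*-BKO peaks without a counterpart, and ranking by fold enrichment left 1 of 4 and 1 of 3, so that class depends on the column ranked. These last alternatives were chosen after seeing the data. No paired analysis was possible because each genotype has 1 pooled sample, and no replicate could be left out. Read depth is unknown, so a peak missing from a list may have been below the threshold there.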
